A study of Homo sapiens with 4 samples.

Results

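STAT4 and SATB1 are 2 transcription regulators of T cells that are known to be lost or reduced in Sézary cells, the malignant T cells of Sézary syndrome, a T-cell lymphoma of skin and blood. They were chosen by name, with earlier results of these data known. Every probe set whose symbol in the array annotation was STAT4 or SATB1 was taken. This gave 1 probe set for each gene, out of 14884 named genes and 53617 probe sets. RNA came from HUT78, an established human T-cell line of that disease. Cells had been given the compound CSH71 at 250 nM for 30 h (2 arrays) or were left untreated (2 arrays). The labels name no vehicle for the untreated cells, and both groups are the same line, so the comparison concerns 1 line. By its title the series concerns chemicals against the lipid-binding domain of the kinase p38γ, and CSH71 is the one used here. The comparison asks whether RNA of the 2 genes differed between treated and untreated cells.

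STAT4 is a latent transcription factor of the cytoplasm. Interleukin-12 receptors and their kinases JAK2 and TYK2 phosphorylate it, after which it enters the nucleus and promotes T helper 1 genes such as the interferon-gamma gene. Its absence from Sézary cells has been linked to their T helper 2 character. SATB1 is a nuclear protein that binds AT-rich DNA, anchors chromatin loops and recruits chromatin-modifying enzymes, and it is abundant in thymocytes. Low SATB1 in Sézary cells has been linked to raised T helper 2 cytokines and to resistance to activation-induced cell death.

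The DNA just before the outermost annotated start of each gene is shown because the transcript levels of both genes are what is compared, and because the genes called higher on these arrays include the AP-1 subunit JUN and the cAMP response factor CREM, whose classes of factor bind short motifs in such DNA. Both sequences are the 250 bases before the start, on the minus strand, from RefSeq (GRCh38.p14). STAT4 lies on chromosome 2 (window chr2:191151597-191151846) and SATB1 on chromosome 3 (window chr3:18445593-18445842). Capitals mark matches to the motifs searched.
STAT4: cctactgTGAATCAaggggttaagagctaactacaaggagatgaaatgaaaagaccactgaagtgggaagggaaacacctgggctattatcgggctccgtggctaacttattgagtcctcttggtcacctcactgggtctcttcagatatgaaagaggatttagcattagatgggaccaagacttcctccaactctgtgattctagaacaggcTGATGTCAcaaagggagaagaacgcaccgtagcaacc
SATB1: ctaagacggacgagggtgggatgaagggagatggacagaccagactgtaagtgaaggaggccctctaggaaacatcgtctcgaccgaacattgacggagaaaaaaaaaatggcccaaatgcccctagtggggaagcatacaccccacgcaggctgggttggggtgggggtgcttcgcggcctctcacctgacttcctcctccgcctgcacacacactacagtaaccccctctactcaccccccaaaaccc

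Both strands were searched for TGANTCA (like the AP-1 site), TGANGTCA (like the cAMP response element), TTCNNNGAA (the site of activated STAT proteins) and GATAAG (the site of GATA factors). N stands for any base, so the first 2 motifs are looser than the sites they resemble. No match overlapped another. The letters of the second motif were settled after the sequences had been read. The STAT4 window held TGAATCA at 243 to 237 bases before the start and TGATGTCA at 37 to 30 bases before it. The SATB1 window held none of the 4 motifs. RefSeq lists 2 starts for STAT4 and 4 for SATB1. The other STAT4 window held GATAAG alone, and the other SATB1 windows held none. Over all 35116 such windows, TGANTCA stood in 6.57%, TGANGTCA in 6.87%, TTCNNNGAA in 6.57% and GATAAG in 5.65%. GC content was 46.8% in the STAT4 window shown and 57.2% in the SATB1 window shown, against a median of 58.0% over all windows. These matches describe letters in a window and say nothing of binding.

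CSH71-treated cells had more STAT4 RNA signal than untreated cells, about 2-fold on the log2 scale, and more SATB1 signal by a smaller amount. STAT4 had intensities of 464 and 367 on CSH71 replicates 1 and 2, against 175 and 200 on untreated replicates 1 and 2. Both treated arrays lay above both untreated arrays, and the lower treated value was 1.84 times the higher untreated one. The mean was 415 ± 68.3 in CSH71-treated cells and 188 ± 17.1 in untreated cells (SD, n = 2 each). On the log2(intensity + 16) scale the fold change was 1.08 ± 0.19 (SE), with a 95% interval of 0.62 to 1.53.

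SATB1 had intensities of 226 and 189 on CSH71 replicates 1 and 2, against 129 and 111 on untreated replicates 1 and 2. The groups again did not overlap, and the lower treated value was 1.47 times the higher untreated one. The mean was 208 ± 26.7 in CSH71-treated cells and 120 ± 12.6 in untreated cells (SD, n = 2 each). The log2 fold change was 0.72 ± 0.18 (SE), with a 95% interval of 0.28 to 1.15. These are bulk samples, so more RNA per cell and more cells that carry the transcript cannot be told apart.

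**Figure D1:**
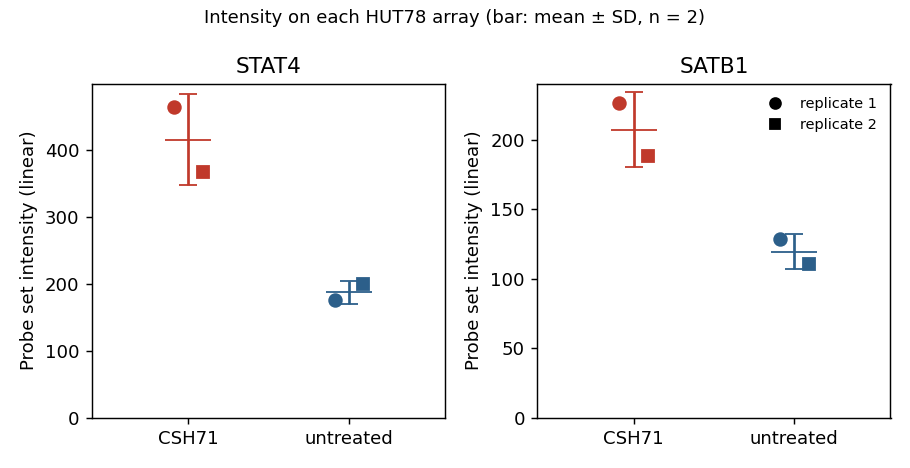
Linear probe set intensity of STAT4 (left) and SATB1 (right) on each array; circles are replicate 1, squares replicate 2, bars the mean ± SD (n = 2). Both CSH71 values lie above both untreated values for each gene, with means of 415 (CSH71) and 188 (untreated) for STAT4 and of 208 (CSH71) and 120 (untreated) for SATB1.

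Neither gene passed the test across all genes. The limma adjusted p was 0.515 for STAT4 and 0.927 for SATB1, with unadjusted p-values of 0.00083 and 0.00601 from the same fit. Among the 14884 genes, 0.0403% were called higher and 0.00672% lower at an adjusted p under 0.05. At an unadjusted p under 0.05, 3.2% of genes were higher and 1.91% lower. Groups that do not overlap are common in a comparison of this size: 15% of all genes were higher and 16.6% lower without overlap, so that property alone sets neither gene apart. A difference of at least 2-fold upwards, which STAT4 reached and SATB1 did not, was found for 0.202% of genes. By log2 fold change, STAT4 ranked 23 and SATB1 106 from the highest among all genes. By p, the ranks were 24 and 90. Both genes were chosen with earlier results of these data known, so their ranks and unadjusted p-values are descriptive. For a single gene, the exact permutation test of 2 against 2 arrays gave a two-sided p of 0.333 for both, the smallest it can give.

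**Figure D2:**
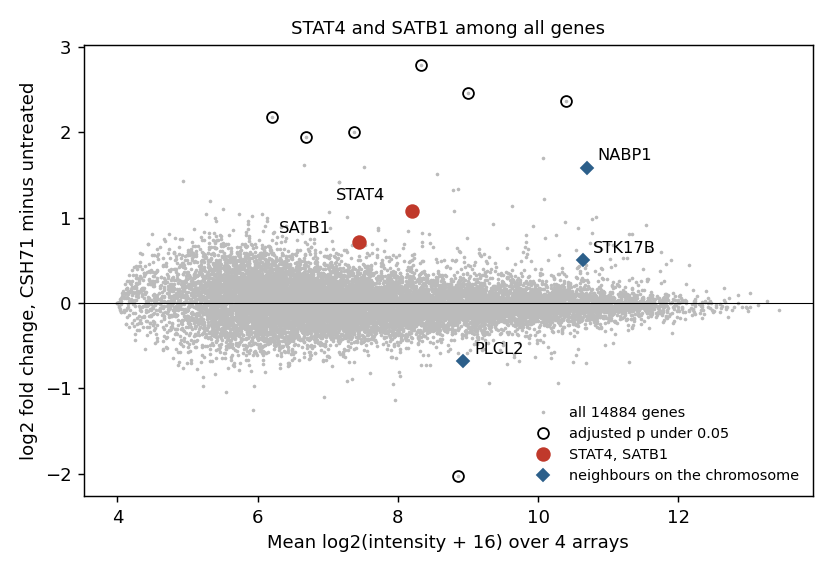
Log2 fold change (CSH71 minus untreated) against mean log2(intensity + 16) over the 4 arrays for all 14884 genes (grey); open circles are genes with an adjusted p under 0.05, red points STAT4 (1.08) and SATB1 (0.72), and diamonds 3 chromosomal neighbours. Both red points lie at the upper edge of the grey cloud, below the 6 genes called higher.

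The differences were larger than the distance between arrays of 1 group. On the log2 scale the 2 treated arrays differed by 0.32 for STAT4 and 0.24 for SATB1, and the 2 untreated arrays by 0.17 and 0.19. Each treated array set against each untreated array gave STAT4 differences from 0.83 (CSH71 replicate 2 against untreated replicate 2) to 1.33 (CSH71 replicate 1 against untreated replicate 1). For SATB1 they ran from 0.50 (CSH71 replicate 2 against untreated replicate 1) to 0.94 (CSH71 replicate 1 against untreated replicate 2). CSH71 replicate 1 was the higher treated array for both genes, whereas the higher untreated array was replicate 2 for STAT4 and replicate 1 for SATB1. The log2 fold change of STAT4 exceeded that of SATB1 by 0.36, and the exact permutation p was 0.333 (two-sided), the smallest that 2 against 2 arrays can give, so whether the sizes differ cannot be tested at this number of arrays.

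The log2 fold change ran from 0.92 to 1.24 for STAT4 and from 0.56 to 0.84 for SATB1 over all 15 alternative settings, with no change of direction. SATB1 did not pass the test in any of them (limma adjusted p from 0.260 to 1). STAT4 ran from 8.75e-05 to 1 in adjusted p. It passed in 4 of the 15: with a pseudocount of 64 (0.0176), after median centring of the arrays (0.0168), with a variance prior that follows intensity (8.75e-05), and with a replicate block (0.0433), which is not drawn because the labels give no pairing. In the last 3 the prior degrees of freedom were infinite, so the spread of STAT4 itself did not enter its p. With any 1 array left out its adjusted p lay between 0.0841 and 0.999.

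**Figure D3:**
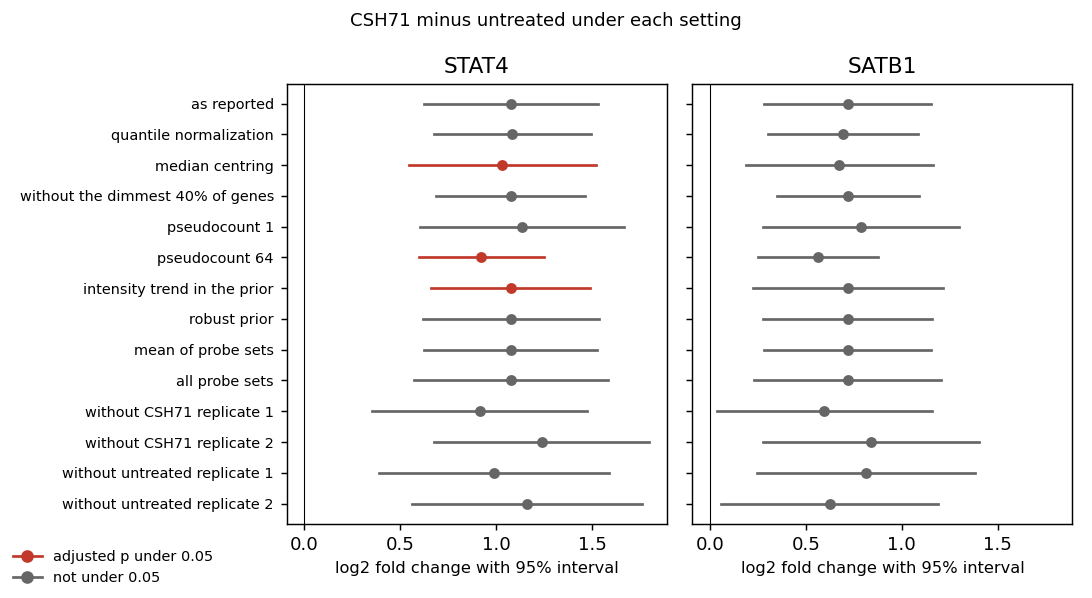
Log2 fold change (CSH71 minus untreated) with its 95% interval for STAT4 (left) and SATB1 (right) as reported and under other processing settings; red marks an adjusted p under 0.05. Every interval lies above 0, and the estimates run from 0.92 to 1.24 for STAT4 and from 0.56 to 0.84 for SATB1.

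The 4 arrays had median intensities of 71.5 to 81.1 over all probe sets, most of which carry no symbol. Every STAT4 and SATB1 value was brighter than that median on its array. Against the median of the named genes, STAT4 was above it on every array, but SATB1 only on the treated arrays. Untreated SATB1 lay below it, at 7.18 and 6.99 on the log2 scale, where the medians were 7.31 and 7.25. On the untreated arrays the B-cell markers BLK, CD22 and PAX5 were brighter than SATB1, and BLNK was dimmer. BLK, at 318 and 347 there, was also brighter than STAT4, and BLNK was dimmer. CD22 and PAX5 were brighter than STAT4 on untreated replicate 1 and dimmer on untreated replicate 2. Brightness alone therefore does not show that untreated cells expressed SATB1 or STAT4. The files give no detection call or background level. Of 14 T-cell markers, 8 were measured under their symbols, and 0 of them were at 0. Kinases and adaptors of the T-cell receptor were bright, with ZAP70 at 1577 to 1829 and LCK at 1057 to 1157 on the treated arrays, against 1708 to 1739 and 1018 to 1141 on the untreated arrays. CD2, an adhesion receptor of T cells, lay near the array medians at 60.9 and 85.1 on the treated arrays, against 91.6 and 66.8 on the untreated arrays. The summed intensity of the 8 T-cell markers was 6904 to 7517 in treated and 7207 to 7233 in untreated arrays. Summed B-cell markers (4 of 8 measured) ran from 651 to 760 in treated and from 737 to 882 in untreated arrays. Monocyte markers (8 of 11) ran from 725 to 841 in treated and from 673 to 874 in untreated arrays. NK-cell markers (5 of 10) ran from 2293 to 2673 in treated and from 2557 to 2690 in untreated arrays. Fibroblast and epithelial markers (5 of 10) ran from 765 to 847 in treated and from 738 to 830 in untreated arrays. The ranges of the groups overlapped in each of these lists, and 0 of their measured members were at 0. In the adjusted test 0 of them passed, where 0.0403% of all genes were called higher and 0.00672% lower.

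The measured paralogues of STAT4 did not pass the test. Of the other 6 STAT genes, 3 were measured, and 0 had an unadjusted p under 0.05 in either direction. At that threshold 3.2% of all genes were higher and 1.91% lower, so 0 among so few is near that share. STAT5A, a mediator of interleukin-2 and interleukin-7 signals, had 382 and 379 on the treated arrays, against 465 and 491 on the untreated arrays, a log2 fold change of -0.32 ± 0.17. STAT3, which transmits interleukin-6 and interleukin-21 signals, was at 2084 ± 128 in treated and 2041 ± 88.9 in untreated cells (log2 fold change 0.03). STAT5B, the near relative of STAT5A, was at 522 ± 35.5 in treated and 524 ± 4.74 in untreated cells (-0.0061). The signs of these last 2 values turned under other settings. The 95% intervals of STAT5A, STAT3 and STAT5B ended at 0.07, 0.43 and 0.39, below the lower bound of 0.62 for STAT4. The fold changes of the paralogues and of STAT4 were not tested against each other.

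Genes that act on STAT4 also showed no difference past the test. Of 14 receptor chains and kinases, 7 were measured, with a median log2 fold change of 0.06 against -0.01 over all genes. Of these 7, 0 had an unadjusted p under 0.05, near the share over all genes (3.2% higher and 1.91% lower). JAK2 was at 0.15 ± 0.18, TYK2 at 0.12 ± 0.19 and JAK3, the kinase of the common gamma chain, at -0.10 ± 0.19. IL18RAP, an interleukin-18 receptor chain, was at -0.33 ± 0.24 on a dim probe set. The signs of TYK2 and JAK3 turned when 1 untreated array was left out. Of 18 inhibitors of cytokine signalling, 8 were measured and 0 had an unadjusted p under 0.05 (median 0.14), again near the share over all genes. CISH, a feedback inhibitor downstream of STAT5, was at -0.28 ± 0.19, SOCS4 at 0.32 ± 0.23, SOCS2 at 0.23 ± 0.20 and SOCS6 at 0.20 ± 0.25, where the sign of SOCS6 turned without CSH71 replicate 2. With 1 array left out, CISH ran from -0.46 to -0.11, SOCS4 from 0.06 to 0.57 and SOCS2 from 0.08 to 0.39.

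**Figure D4:**
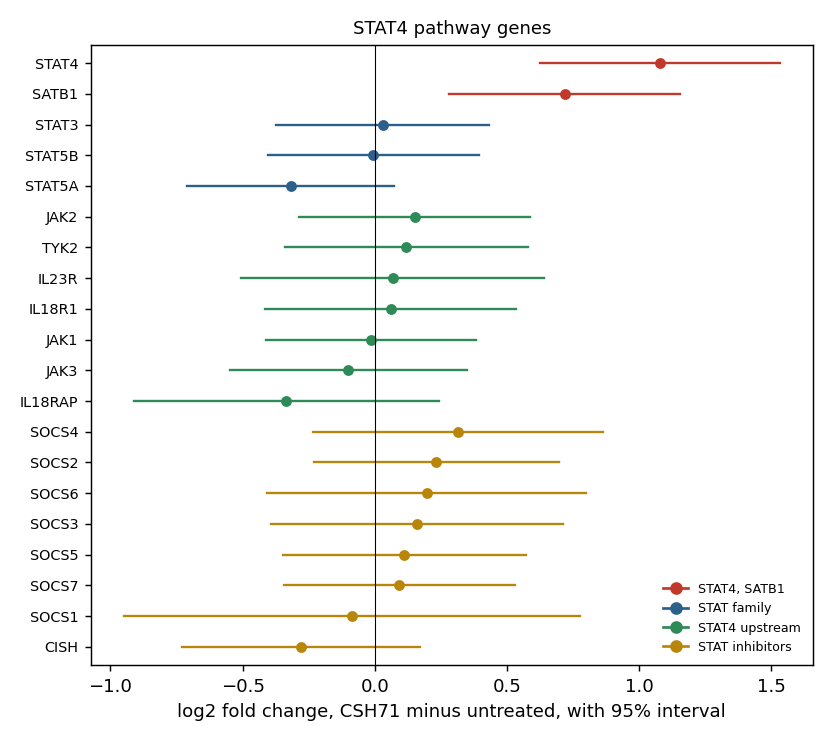
Log2 fold change (CSH71 minus untreated) with 95% interval for STAT4 and SATB1 (red), the other measured STAT genes (blue), receptor chains and kinases that act on STAT4 (green) and inhibitors of cytokine signalling (ochre). The intervals of STAT4 and SATB1 lie above 0, and those of all other genes drawn include 0.

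T helper 1 genes and known targets of STAT4 had fold changes of both signs. Of 19 genes 14 were measured, 0 had an unadjusted p under 0.05, 6 were positive and 8 negative, and the median was -0.06. A count of 0 among 14 is near the share over all genes (3.2% higher and 1.91% lower). FURIN, a protease gene that interleukin-12 induces through STAT4, was nearest to the threshold. It had 1118 and 1123 on the treated arrays, against 796 and 897 on the untreated arrays (log2 fold change 0.40 ± 0.17, unadjusted p = 0.0513, limma adjusted p = 0.981). The transcription factor gene IRF1 was at -0.34 ± 0.19 and PRF1, which encodes perforin, at -0.28 ± 0.17. TBX21, the master regulator of T helper 1 cells, was at 0.04.

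T helper 2 genes lay in both directions. Of 13 genes 10 were measured. At an unadjusted p under 0.05 there was 1 higher (10% against 3.2% of all genes) and 2 lower (20% against 1.91%). Because the list was chosen with earlier results of these data known, these shares only describe it. In the adjusted test 0 passed, where 0.0403% of all genes were called higher and 0.00672% lower. PTGDR2, the prostaglandin D2 receptor of T helper 2 cells, had 138 and 122 on the treated arrays, against 218 and 268 on the untreated arrays (log2 fold change -0.82 ± 0.19, limma adjusted p = 0.877). The chemokine receptor gene CCR8 had 1317 and 1188 on the treated arrays, against 1802 and 1847 on the untreated arrays (-0.54 ± 0.17). MAF, a transcription factor of the interleukin-4 gene, had 141 and 104 on the treated arrays, against 69.9 and 71.5 on the untreated arrays (0.66 ± 0.20). In all 3 the groups were apart, as they were for 15% of all genes upwards and 16.6% downwards. These 3 were named for their small p, so that separation adds nothing further. GATA3, the lineage factor of T helper 2 cells, was at 0.11 and CCR4, a skin-homing receptor, at -0.35 ± 0.17.

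The chromatin partners of SATB1 were bright and differed little. Of 14 partners 8 were measured, 0 had an unadjusted p under 0.05, and the median was -0.08. Among 8 genes a count of 0 is near the share over all genes (3.2% higher and 1.91% lower). CUX1, a homeobox protein that binds SATB1, was at 0.22 ± 0.17 and KAT2B, the acetyltransferase that modifies SATB1, at 0.21 ± 0.17. The corepressor gene SIN3A was at -0.16 ± 0.18 and PML, which organises nuclear bodies with SATB1, at -0.16 ± 0.19. The deacetylase genes HDAC1 and HDAC2 were at -0.12 and -0.04.

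Of 26 T-cell genes linked to SATB1, mostly as known from mouse, 20 were measured, and 12 were positive and 8 negative with a median of 0.11. Whether SATB1 acts on any of them in these cells was not tested. In the adjusted test 1 of them was called higher, as were 0.0403% of all genes, and 0 lower. At an unadjusted p under 0.05, 4 (20%, against 3.2% of all genes) were higher and 0 lower (against 1.91%). Because the list was chosen with earlier results of these data known, these shares only describe it. IL2, the T-cell growth factor, rose: it had 201 and 174 on the treated arrays, against 42.1 and 32.1 on the untreated arrays (log2 fold change 1.94 ± 0.19, limma adjusted p = 0.0383), a call that 6 of 14 alternative settings ended, among them leaving out untreated replicate 1 (0.329) or 2 (0.448). IL7R, the interleukin-7 receptor, had 2340 and 2032 on the treated arrays, against 1241 and 1427 on the untreated arrays (0.71 ± 0.18, adjusted p = 0.927). BCL6, a transcriptional repressor of follicular helper T cells, had 174 on both treated arrays, against 103 and 118 on the untreated arrays (0.59 ± 0.17). RAG2, a recombinase gene of immature lymphocytes, was dim at 15.8 and 26.9 on the treated arrays, against 9.86 and 8.22 on the untreated arrays (0.56 ± 0.20).

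**Figure D5:**
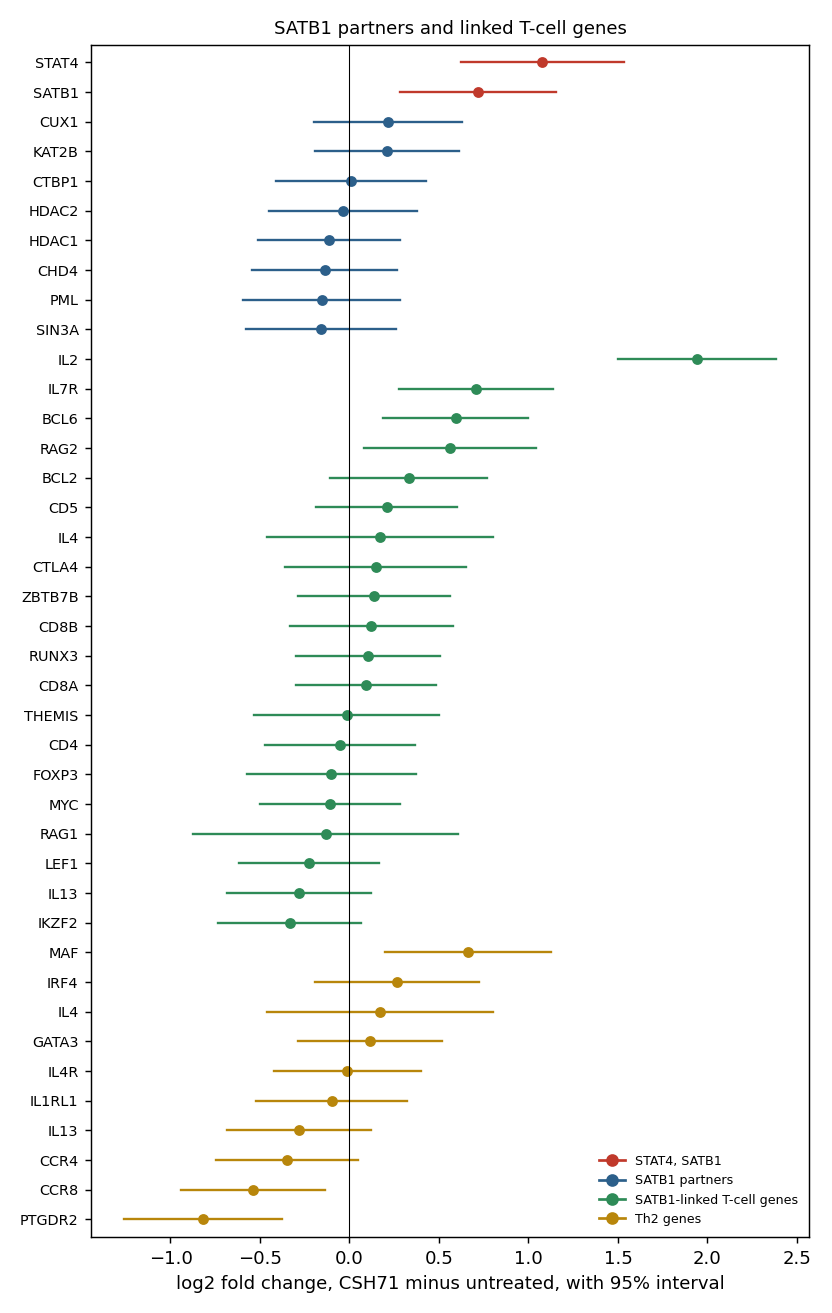
Log2 fold change (CSH71 minus untreated) with 95% interval for STAT4 and SATB1 (red), SATB1 partners (blue), T-cell genes linked to SATB1 (green) and T helper 2 genes (ochre). IL2 (1.94) stands apart at the right, and PTGDR2 (-0.82) lies lowest.

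Few of the other genes known to change in Sézary cells were measured, and a count of 0 past the threshold among so few is near the share over all genes (3.2% higher and 1.91% lower at an unadjusted p under 0.05). Of 15 further genes known to be lost, 8 were measured and 0 had an unadjusted p under 0.05, with 3 positive, 5 negative and a median of -0.07. LEF1, a T-cell transcription factor, was at -0.23 ± 0.16, BCL11A, a zinc-finger repressor, at 0.22 ± 0.21, TCF3, a basic helix-loop-helix factor, at -0.17 ± 0.18, and the cell-cycle inhibitor gene CDKN2A at 0.14 ± 0.22, where the sign of CDKN2A turned without untreated replicate 2. The surface antigens DPP4 (CD26) and CD7, whose loss marks Sézary cells in blood, were at -0.09 and -0.04. Of 18 genes known to be gained, 12 were measured and 0 had an unadjusted p under 0.05 (median -0.01). JUNB, an AP-1 subunit, was at 0.37 ± 0.17, and CCR4, also listed with the T helper 2 genes, at -0.35 ± 0.17. The dynamin gene DNM3 was at 0.30 ± 0.26, with a sign that turned without untreated replicate 2, and the ephrin receptor gene EPHA4 at -0.20 ± 0.17.

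Some genes of the AP-1 and CREB families, classes whose sites the first 2 motifs resemble, rose. Whether any of their products acts on STAT4 or SATB1 was not tested. Of 18 AP-1 and CREB family genes 14 were measured, with 11 positive and 3 negative log2 fold changes. The negative ones were FOS (-0.10), FOSB (-0.07) and CREB1 (-0.07). At a limma adjusted p under 0.05, 3 were called higher (JUN, CREM and FOSL2) and 0 lower, against 0.0403% and 0.00672% of all genes. At an unadjusted p under 0.05, 7 (50%, against 3.2% of all genes) were higher and 0 lower (against 1.91%). This list was chosen with earlier results of these data known, so its share above that of all genes is no independent result. JUN had 857 and 800 on the treated arrays, against 88.7 and 127 on the untreated arrays. Its log2 fold change was 2.79 ± 0.21, and those of CREM and FOSL2 were 2.47 ± 0.20 and 2.01 ± 0.17 (limma adjusted p = 0.0224, 0.0245 and 0.0245). Each of these calls ended in 6 of the 15 alternative settings, among them leaving out either untreated array (adjusted p from 0.192 to 0.377 there). JUND, a more constant AP-1 subunit, was at 0.82 ± 0.17 (adjusted p = 0.742).

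The genes that follow STAT4 and SATB1 along their chromosomes were compared next, a choice made after the values had been seen. In the RefSeq gene order, the nearest measured named gene after STAT4 on chromosome 2 was NABP1, which encodes a single-stranded DNA-binding protein. NABP1 had 2736 and 2996 on the treated arrays, against 903 and 984 on the untreated arrays (log2 fold change 1.59 ± 0.17, limma adjusted p = 0.0559). It lay beside the threshold and crossed it in 7 of 15 alternative settings. The nearest gene on the other side, NAB1, a corepressor of EGR proteins, had 98.8 and 124 on the treated arrays, against 112 and 127 on the untreated arrays (-0.09 ± 0.19), with a sign that turned without CSH71 replicate 1. The 10 neighbours were the 5 measured named genes on each side in that order, at any distance. STK17B, a kinase gene of lymphocytes, was the farthest in order on its side. Of the 10, NABP1 and STK17B were higher at an unadjusted p under 0.05 and 0 were lower, where 3.2% of all genes were higher and 1.91% lower. STK17B had 1874 and 1881 on the treated arrays, against 1289 and 1348 on the untreated arrays (0.50 ± 0.17, adjusted p = 0.927). The remaining 7 ran from -0.21 to 0.24.

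Around SATB1 on chromosome 3, the nearest measured gene before it was PLCL2, which encodes a phospholipase C-like protein. It was lower in treated cells, with 366 and 374 on the treated arrays, against 618 and 591 on the untreated arrays (log2 fold change -0.68 ± 0.17, unadjusted p = 0.00449, limma adjusted p = 0.927). MIR4791, the nearest on the other side, was too dim to describe, at 2.36 to 17.0 over the 4 arrays. The other 8 of the 10 neighbours ran from -0.33 to 0.26.

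Profiles over the 4 arrays were compared by the root mean square difference of gene-centred log2 values, among genes within 1 log2 unit of mean brightness. Of 4388 candidates, TNF, the inflammatory cytokine gene that the design text singles out, was the most like STAT4, at 0.0089. TNF had 705 and 570 on the treated arrays, against 273 and 310 on the untreated arrays (log2 fold change 1.08 ± 0.19). Next came RASSF8 (0.077), CEMIP2 (0.131), ZBTB10 (0.157) and EPAS1 (0.158), which had log2 fold changes of 1.01, 1.32, 0.88 and 0.84. Of 5622 candidates for SATB1, the nearest were GRAMD1B (0.046), LRRC52 (0.081), RNF32 (0.082), ABTB2 (0.089) and MIR16-2 (0.096), with log2 fold changes from 0.56 to 0.72. RNF32 has more than 1 probe set, and the mean of its probe sets gave 0.19 in place of 0.72. STAT4 and SATB1 themselves were 0.222 apart. With 4 arrays in 2 groups, such likeness mostly reflects a fold change of like size, and it describes these arrays alone.

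MicroRNA miR-155-5p is known to repress STAT4 in cutaneous T-cell lymphoma, so its gene was looked up after the other values had been seen. The mature RNA from RefSeq (GRCh38.p14) is shown with its seed, bases 2 to 8, in capitals, because that is the part that pairs with target transcripts.
hsa-miR-155-5p: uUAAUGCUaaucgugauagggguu

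The MIR155 probe set had 77.3 and 92.1 on the treated arrays, against 67.5 and 39.5 on the untreated arrays. The treated arrays were higher, as for STAT4, by a log2 fold change of 0.56 ± 0.24 (95% interval 0.0030 to 1.12), and limma gave an adjusted p of 0.971. Without untreated replicate 2 the value was 0.27 with an interval of -0.29 to 0.82, and without untreated replicate 1 it was 0.85. The untreated arrays differed from each other by more than the treated ones did, and the values lie near the array medians. The probe set cannot tell the mature RNA from its precursor.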

How the data were processed

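Each of the 4 samples was hybridised alone to an Affymetrix array, and titles gave its group and replicate number. The authors deposited linear intensities, 1 for each probe set. Affymetrix Expression Console was the software, per the submitters' processing notes; how it summarised, corrected and normalized the values is not given here, nor is any batch. Whether replicates came from separate cultures is not stated, so each p reflects the spread among these arrays alone, which may be technical. Precision is limited by their number.

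Of 53617 probe sets, 16098 had 1 symbol, 0 several and 37519 none in the platform annotation. All 16098 matched RefSeq (GRCh38.p14) by entrez identifier, and a gene's brightest probe set was used. Values were transformed to log2(intensity + 16), which understates fold changes of dim genes. limma 3.58.1 (R 4.3.3) fitted 2 group means per gene, with Benjamini-Hochberg adjustment over all genes and calls under 0.05; it offset variances of 0. STAT4, SATB1, the lists and the settings were chosen with earlier results of these data known. The text names up to 4 genes per list by smallest p and the 5 most like profiles. TBX21, GATA3, HDAC1, HDAC2, FOS, FOSB, CREB1, DPP4, CD7, the marker genes, the chromosomal neighbours and MIR155 were picked after values were seen. Of 192 listed genes, 120 had a named probe set, and some stand in several lists. In 10 simulated runs of this comparison over 14884 genes, 200 genes were changed per run. Of the changes, 18.2% of 2-fold and 93.8% of 4-fold ones were called, with 4.8 false calls per run. Figures were drawn with matplotlib 3.10.9.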

Additional observations from a re-analysis of the deposited data

How the results depend on the processing

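STAT4 and SATB1 kept their direction in all 15 alternatives, and SATB1 stayed on its side of the threshold in each. STAT4 passed in 4 of them: with the replicate number as a block (log2 fold change 1.08, adjusted p = 0.0433), after median centring (1.03), with a pseudocount of 64 (0.92) and with an intensity trend in the prior (1.08). Leaving out 1 array at a time gave 0.92 to 1.24 for STAT4 and 0.60 to 0.84 for SATB1. The labels give both groups the numbers 1 and 2 but no pairing, and same-numbered arrays deviated in opposite directions (correlation -0.29 across genes). With the crossed pairing as a block, chosen after seeing the data, limma called 0 genes (1291 at an unadjusted p under 0.05).

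The number of genes called, 7 as reported, was 28 with the replicate block, 43 after median centring, 11 without the dimmest 40% of genes, 33 with a pseudocount of 64 and 143 with an intensity trend. It was 0 after quantile normalization (927 at an unadjusted limma p under 0.05), 0 with a pseudocount of 1 (768) and 0 over all probe sets (2367), and 0 to 29 with 1 array left out (609 to 834). With the block, centring and the trend the prior degrees of freedom were infinite; the cause of the other shifts was not tested. The split of calls was 6 higher and 1 lower as reported, against 32 and 11 after centring.

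Of 53 other named genes, 45 kept their sign throughout, and 17 of these moved by over 1.5 times with 1 array left out. RNF32 was at 0.19 with the mean of its probe sets. STAT3 turned to -0.015 after median centring and STAT5B to 0.0065 after quantile normalization. With 1 array left out, values ran from -0.033 to 0.091 for STAT3, -0.073 to 0.061 for STAT5B, -0.26 to 0.058 for JAK3, -0.070 to 0.31 for TYK2, -0.12 to 0.51 for SOCS6, -0.24 to 0.055 for NAB1, -0.12 to 0.40 for CDKN2A and -0.020 to 0.62 for DNM3.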
